A study of Mus musculus with 6 samples.

Results

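The mitochondrially encoded transcripts are the 37 genes whose symbol begins with mt-, chosen by that name alone from the 55492 genes of the table: 2 ribosomal RNAs (rRNAs), 22 transfer RNAs (tRNAs) and 13 messenger RNAs (mRNAs). They were measured by RNA sequencing in oligodendrocyte lineage cells captured from whole brain with magnetic beads against O4, a surface antigen of that lineage, in 3 WT and 3 Npc1-/- mice at postnatal day 16, with 1 library from each mouse. Npc1-/- mice were homozygous for the Npc1nih allele of Npc1, which encodes a lysosomal cholesterol transporter, and all cells of these mice carry it. According to the study's methods, mutants and WT controls were littermates and F1 hybrids of Npc1+/- parents on the BALB/cJ and C57BL6/J backgrounds, and both sexes were used. The comparison asked whether the transcripts of the mitochondrial genome differed between the genotypes in these cells.

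Mammalian mitochondrial DNA is a small circle inherited from the mother, transcribed from both strands into long precursors that are cut apart, largely at the tRNAs, into single RNAs. Its mRNAs encode core subunits of complexes I, III and IV of the respiratory chain and of the ATP synthase, and its rRNAs build the mitochondrial ribosome that translates them. Every other subunit, and all the factors that copy, transcribe and process the mitochondrial genome, come from the nucleus. Oligodendrocytes that build myelin need energy and carbon from mitochondrial metabolism for lipid synthesis.

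Several features of the sequences set how the mitochondrial genes could be counted. To begin with, 3 mRNA genes end in the annotation with a lone T, the first base of a stop codon that the poly(A) tail completes. Their last 15 bases (GRCm38 chromosome M, plus strand, with that T in capitals) are shown because the libraries were selected for poly(A):

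mt-Co3, chrM:9376-9390: attgatgaggatctT
mt-Nd4, chrM:11530-11544: caggcctgacaataT
mt-Cytb, chrM:15274-15288: taaaattatatccaT

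In addition, the reading frames of mt-Atp8 and mt-Atp6, which encode subunits of the ATP synthase, share 43 bases. Fragments from this stretch, written in capitals with 12 bases on either side, belong to both genes:

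mt-Atp8/mt-Atp6 overlap, chrM:7915-7981: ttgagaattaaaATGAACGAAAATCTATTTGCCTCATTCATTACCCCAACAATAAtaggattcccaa

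Moreover, chromosome 1 holds a nuclear copy of part of the mitochondrial genome. A match of the GENCODE M21 transcripts found 7 annotated near-copies between bases 24611535 and 24616197 (GRCm38, minus strand), 5 of them with no mismatch over their aligned length: Gm28439 (of mt-Nd4), Gm10222 (of mt-Nd4l), Gm28437 (of mt-Co3), Gm10925 (of mt-Atp6) and Gm28661 (of mt-Co2). The remaining 2 are Gm29216, which covers the last 483 bases of mt-Co1 with 1 mismatch, and Gm28438, which covers 345 of the 348 bases of mt-Nd3. Gm28438 differs from mt-Nd3 by T3C alone, where positions run from 1 at the first base of the gene, the mt-Nd3 base stands first and the near-copy's base last. Position 3 is base 9461 of chromosome M. The first 60 bases of both, with the differing base in capitals, show how little separates them:

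mt-Nd3, chrM:9459-9518, plus strand: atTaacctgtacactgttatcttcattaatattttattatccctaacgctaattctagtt
Gm28438, chr1:24613060-24613119, minus strand: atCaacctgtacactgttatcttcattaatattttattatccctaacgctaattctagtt

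Finally, the tRNA genes, at 59 to 75 bases, are shorter than the sequenced reads, and all 22 were listed at 0 in all 6 samples. All 1004 annotated nuclear genes no longer than 75 bases were listed at 0 as well. A value of 0 therefore says nothing about the amount of mitochondrial tRNA in either genotype. The other 15 genes passed the filter (a mean of at least 0.5 TPM, the transcript level explained next) and are described below.

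The levels are given on 2 scales. TPM counts transcripts, corrected for gene length, as parts of a fixed total in each library, so a few very abundant genes can set the values of all others. The scaled value is TPM divided by a size factor (the median over 18690 nuclear and mitochondrial genes of each sample's ratio to the gene's geometric mean), which sets the middle gene at the same level in each sample. The size factors were 1.295, 1.11 and 1.04 in the WT samples and 1.10, 0.855 and 0.727 in the Npc1-/- samples, so the scales differ by genotype: the median log2 fold change of all 15245 genes tested was 0.008 on the scaled values and -0.326 on TPM. Steps in the low deposited values placed the depth at about 40000000 to 50000000 fragments a library. mt-Co1 alone took 2.31% to 3.14% of them, so for these genes counting error was small beside the spread between mice.

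Npc1 itself followed the labels. It had 45.5 to 53.3 TPM in WT and 3.16 to 4.42 TPM in Npc1-/- mice (log2 fold change -3.17 on the scaled values, adjusted p = 0.000398 in limma). Mbp, which encodes myelin basic protein and marks mature oligodendrocytes, alone took 18.8% to 26.1% of TPM. The summed TPM of markers of other cells was lower in every Npc1-/- than in every WT library for microglia (67.4 to 82.3 against 153 to 288), endothelium (259 to 351 against 461 to 846) and pericytes (124 to 166 against 257 to 465). That of 8 immediate early and heat shock genes, which respond to cell dissociation, was 102 to 167 against 210 to 237. On the scaled values, however, 0 of these 8 genes lay lower in every Npc1-/- than in every WT library. On TPM 5 of 6 microglial, 5 of 5 endothelial, 2 of 3 pericyte and 4 of the 8 dissociation genes passed the thresholds given below as lower (6.06% of all genes passed in either direction), and on the scaled values 1, 0, 0 and 0 did (0.813% of all genes). Of 5 astrocyte markers, 4 (Aqp4, Aldh1l1, Slc1a3 and Gja1) were lower in every Npc1-/- than in every WT library on both scales, 2 of them past the thresholds on TPM and 0 on the scaled values. The fifth, Gfap, was higher in every Npc1-/- library (123 to 197 against 88.5 to 111 TPM), so that the summed astrocyte markers overlapped. Summed markers of neurons, red blood cells and ependyma overlapped too, as did the 11 of the oligodendrocyte lineage. The share of all genes that were lower in every Npc1-/- library was not taken, so counts of such markers have no background. On TPM 14.0% of all genes had a log2 fold change above 0. The part of other cell types in the mitochondrial values below was not tested, and in bulk RNA fewer cells of a type cannot be told apart from less RNA per cell. Npc1-/- replicate 3 differed from the rest in sex-linked genes, with Xist at 15.6 TPM and Ddx3y at 0, so the totals are also given without it.

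Mitochondrial RNA was one of the largest components of these libraries, and the genotypes overlapped in its total on both scales. The 37 genes took 20.6%, 20.8% and 23.2% of TPM in the 3 WT samples and 22.6%, 23.6% and 24.7% in the 3 Npc1-/- samples. The WT mean of 21.5% ± 1.44 and the Npc1-/- mean of 23.6% ± 1.08 (SD, n = 3 each) had a ratio of 1.098, and WT replicate 3 lay above Npc1-/- replicate 1. Without Npc1-/- replicate 3 the difference of the means was 1.56 percentage points in place of 2.11. In these totals mt-Atp8 alone was listed at 61714 to 71002 TPM. Its 204 bases are fewer than a fragment, so its level per length, and with it the size of the totals, is uncertain. On the scaled values the sums were further apart and also more spread: 15.9, 18.8 and 22.3 against 20.5, 27.6 and 34.0 (in per cent of the unscaled TPM total), a ratio of means of 1.44. Within each genotype the scaled sum was higher the lower the sample's size factor, and Mbp moved with it (14.5, 20.0 and 20.2 against 18.4, 28.9 and 36.0). The 13 mRNAs overlapped on TPM (18.7%, 19.1% and 21.04% against 20.6%, 21.3% and 22.1%). They include mt-Nd3, which varied by replicate number and is described below. Without mt-Nd3 the other 12 took 18.70%, 19.02% and 20.58% in WT and 20.59%, 21.30% and 21.55% in Npc1-/- cells, with WT replicate 3 and Npc1-/- replicate 1 all but level. The 10 mRNAs of at least 500 bases took 11.3%, 11.2% and 12.3% against 12.6%, 13.02% and 13.1%, with no overlap. On the scaled values both of these sums overlapped. No test was run on the sums. As a share of estimated fragments, 12 mitochondrial genes of at least 500 bases took 7.47%, 7.52% and 8.64% in WT and 8.73%, 9.62% and 9.90% in Npc1-/- libraries. These did not overlap, but WT replicate 3 and Npc1-/- replicate 1 lay close together.

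**Figure D1:**
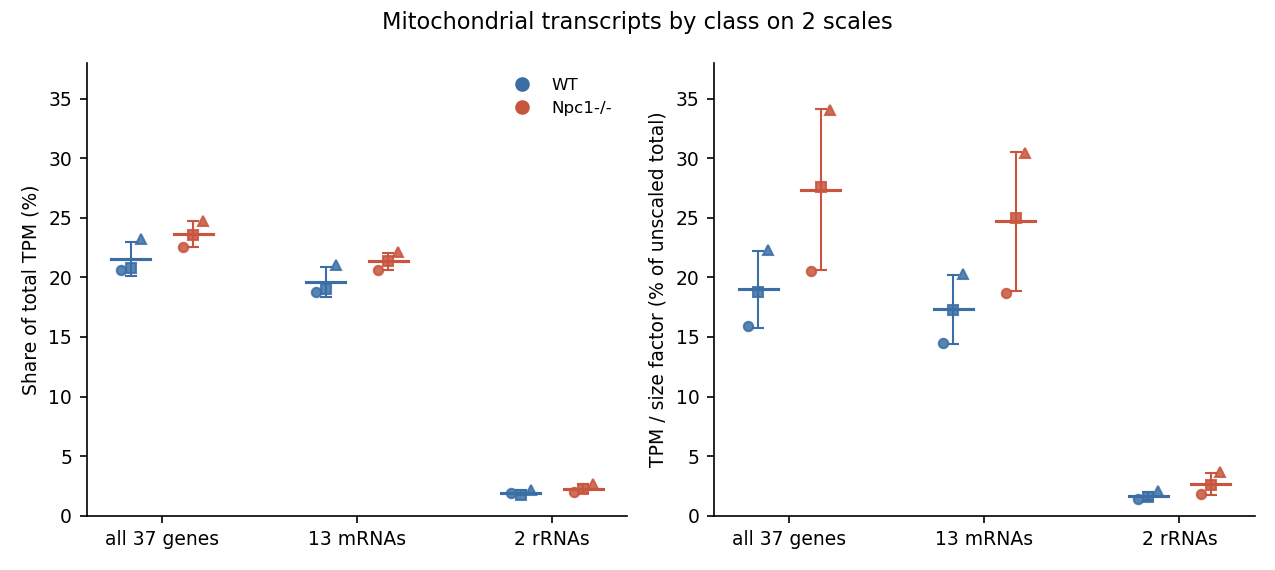
Mitochondrial transcripts by class in each sample, as a share of total TPM (left axis, %) and as TPM divided by the size factor (right axis, in per cent of the unscaled TPM total). Points are samples (circle, square and triangle for replicates 1, 2 and 3), lines are means and bars are SD (n = 3). WT and Npc1-/- overlap in all 3 classes on both scales. Without mt-Nd3 the mRNAs do not overlap on TPM, but the nearest samples are all but level (20.58% in WT and 20.59% in Npc1-/-). The Npc1-/- samples are spread more widely on the scaled values (20.5 to 34.0 for all 37 genes).

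None of the 15 genes passed the thresholds (adjusted p under 0.05 and a log2 fold change of at least 0.1 in either direction) in limma on the scaled values, where 0.813% of all genes did (124 of 15245). None had an unadjusted p under 0.05 either, against 22.2% of all genes. None passed on TPM as deposited, where 6.06% of all genes did. All 15 log2 fold changes lay above 0 on both scales, beside 51.0% of all genes on the scaled values and 14.0% on TPM. The 13 mRNAs had a median log2 fold change of 0.49 on the scaled values (0.39 to 0.61) and 0.12 on TPM (0.02 to 0.23), beside medians of 0.008 and -0.326 over all genes. Without Npc1-/- replicate 3 the median on the scaled values was 0.35. These genes share precursors, so their common direction is not 15 separate observations.

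**Figure D2:**
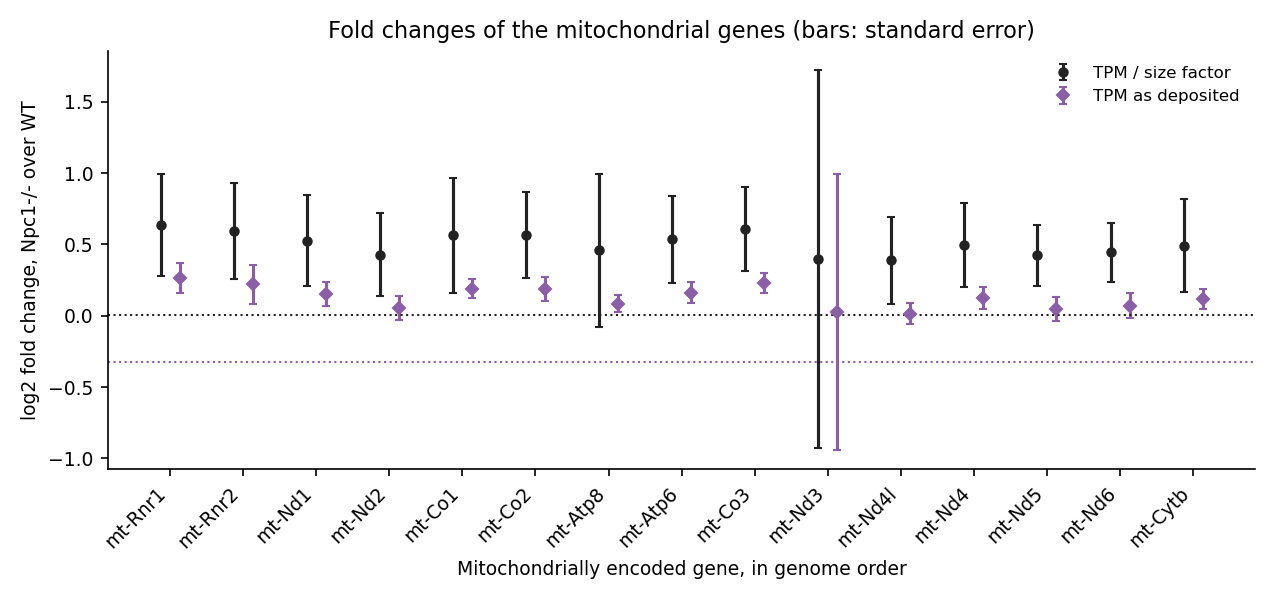
The log2 fold change (Npc1-/- over WT) of the 15 mitochondrial rRNAs and mRNAs in genome order, on TPM divided by the size factor (circles) and on TPM as deposited (diamonds), with standard errors from limma and dotted lines at the median of all 15245 genes on each scale (0.008 and -0.326). All points lie above 0 and above the median of their scale, and mt-Nd3 has by far the widest error (1.33 on the scaled values).

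The rRNAs overlapped between the genotypes, and mt-Rnr1 had the largest fold change of the 15 genes on both scales, with a wide error. The scaled value rests on Npc1-/- replicate 3, without which it was 0.39, below mt-Co3 (0.46), mt-Co2 (0.44) and mt-Co1 (0.41). mt-Rnr1, the RNA of the small ribosomal subunit (chrM:70-1024), had 12537, 11755 and 14186 TPM in WT and 13463, 15173 and 17762 TPM in Npc1-/- cells. Its log2 fold change was 0.64 ± 0.36 (SE) on the scaled values (adjusted p = 0.351, limma) and 0.26 ± 0.11 on TPM (adjusted p = 0.165), and Npc1-/- replicate 1 lay below WT replicate 3. mt-Rnr2, the RNA of the large subunit (chrM:1094-2675), had 6108, 5442 and 7286 TPM against 6136, 7150 and 8722 TPM, and its groups also overlapped. The rRNAs together were 0.0995, 0.0902 and 0.102 of the summed mRNAs in WT and 0.0950, 0.105 and 0.120 in Npc1-/- cells, which overlapped. mt-Rnr1 stood at 1.95 to 2.16 times mt-Rnr2 in WT and 2.04 to 2.19 times in Npc1-/- cells, although both come from 1 precursor. Since poly(A) RNA was selected and these rRNAs carry short tails at most, the values are of the rRNA that was captured, not of the rRNA in the cells.

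**Figure D3:**
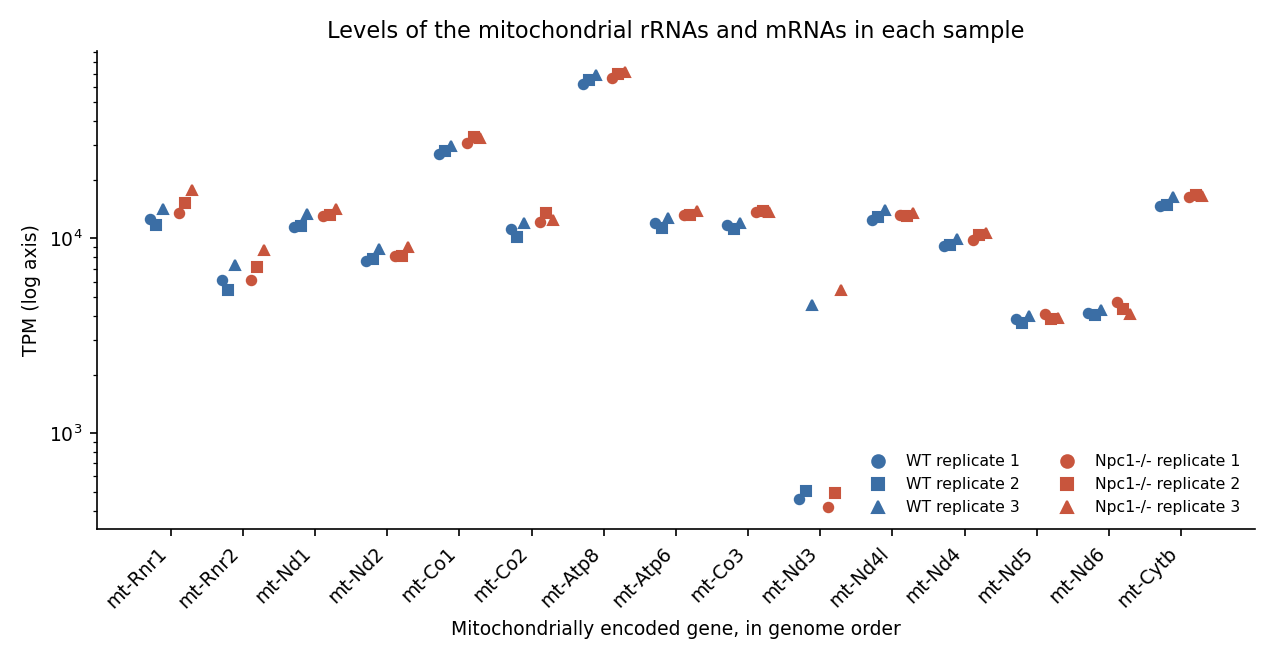
TPM (log axis) of the 15 mitochondrial rRNA and mRNA genes, in genome order, in each WT (blue) and Npc1-/- (red) sample, with 1 symbol for each replicate number. mt-Atp8 and mt-Co1 are the highest, and mt-Nd3 is the one gene whose samples fall apart, at 416 to 503 TPM in replicates 1 and 2 of both genotypes and at 4564 and 5408 TPM in replicates 3.

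Among the 12 genes of at least 500 bases the order of levels per length was much the same in all 6 samples. mt-Co1 was the highest in every sample, followed by mt-Cytb (ranks 2 to 3) and mt-Rnr1 (ranks 2 to 4), which changed places between samples. In Npc1-/- replicate 1 mt-Rnr1 also stood below mt-Co3 (13463 and 13578 TPM). mt-Nd1, mt-Atp6, mt-Co3 and mt-Co2 came next and could not be ordered, since they changed places between samples within ranks 3 to 7. mt-Nd4, mt-Nd2, mt-Rnr2, mt-Nd6 and mt-Nd5 followed in this order in every sample, at ranks 8 to 12. The near-copies bear on this order, because values credited to them may come from the mitochondrial gene. mt-Atp8 was listed above all of these, at 61714 to 71002 TPM, but its 204 bases are fewer than the fitted fragment length of 240 to 250 bases, so its level per length cannot be set beside the longer genes. mt-Nd4l and mt-Nd3, at 297 and 348 bases, are little longer than a fragment and were left out of the order as well.

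The mRNAs of complex IV, cytochrome c oxidase, were the class with the clearest separation on TPM. Its 3 mitochondrial subunits, mt-Co1, mt-Co2 and mt-Co3, form the catalytic core that passes electrons to oxygen. Together they took 5.01%, 4.96% and 5.37% of TPM in WT and 5.66%, 6.05% and 5.89% in Npc1-/- cells, with every Npc1-/- sample above every WT sample (mean 5.11 ± 0.226 and 5.87 ± 0.195, SD, n = 3, ratio 1.15). On the scaled values the groups overlapped (3.86, 4.48 and 5.17 against 5.14, 7.08 and 8.10).

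mt-Co1 (chrM:5328-6872) had 27127, 28209 and 29700 TPM in WT and 30920, 33288 and 32827 TPM in Npc1-/- cells. All Npc1-/- samples lay above all WT samples on this scale, with a log2 fold change of 0.19 ± 0.06 (SE, adjusted p = 0.11, limma on TPM). mt-Co3 (chrM:8607-9390) had 11760, 11200 and 12010 TPM in WT and 13578, 13823 and 13657 TPM in Npc1-/- cells. It was the gene with the lowest adjusted p of the 15 on TPM (log2 fold change 0.23 ± 0.07, adjusted p = 0.0747) and, with mt-Nd6, 1 of 2 whose groups did not overlap on the scaled values (log2 fold change 0.61 ± 0.30, adjusted p = 0.285). mt-Co2 (chrM:7013-7696) had 11164, 10151 and 11984 TPM against 12142, 13419 and 12375 TPM, again with no overlap (log2 fold change 0.19 ± 0.08, adjusted p = 0.195). In all, 5 of the 15 genes had every Npc1-/- sample above every WT sample on TPM, beside 2.58% of all genes, and 2 of 15 did so on the scaled values, beside 13.3% of all genes. Abundant nuclear genes did so on TPM too: 16 of the 43 with a mean of at least 1000 TPM, whose median log2 fold change was 0.16 on TPM and 0.53 on the scaled values.

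The remaining 2 of those 5 genes were mt-Cytb and mt-Atp6. mt-Cytb (chrM:14145-15288), the one mitochondrial subunit of complex III, which takes electrons from ubiquinol, had 14624, 14761 and 16215 TPM in WT and 16288, 16605 and 16570 TPM in Npc1-/- cells. The gap between WT replicate 3 and Npc1-/- replicate 1 was small beside the spread within WT, and the log2 fold change was 0.12 ± 0.07 (adjusted p = 0.295, limma on TPM). mt-Atp6 (chrM:7927-8607), which forms part of the proton channel of the ATP synthase, had 12047, 11270 and 12701 TPM against 13170, 13255 and 13847 TPM (log2 fold change 0.16 ± 0.07, adjusted p = 0.210). mt-Atp8 overlapped between the genotypes, with a log2 fold change of 0.08 on TPM. With mt-Atp6 it took 7.38%, 7.66% and 8.16% of TPM in WT and 8.0%, 8.31% and 8.48% in Npc1-/- cells, which overlapped.

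The 7 mRNAs of complex I, the NADH dehydrogenase through which most electrons enter the chain, overlapped between the genotypes on TPM. Together they took 4.90%, 4.98% and 5.89% of TPM in WT and 5.34%, 5.33% and 6.07% in Npc1-/- cells, a ratio of means of 1.06. The log2 fold changes of mt-Nd1, mt-Nd2, mt-Nd4, mt-Nd4l, mt-Nd5 and mt-Nd6 were 0.02 to 0.15 on TPM and 0.39 to 0.53 on the scaled values, all with adjusted p of 0.261 or above. mt-Nd6 (chrM:13552-14070) is the sole mRNA of the opposite strand, made from its own precursor. It had scaled values of 3185, 3670 and 4143 in WT and 4273, 5052 and 5656 in Npc1-/- cells, which did not overlap (log2 fold change 0.45 ± 0.21, adjusted p = 0.263), whereas its TPM did. As a ratio to the geometric mean of the other mRNAs without mt-Nd3, mt-Nd6 stood at 0.323, 0.320 and 0.308 in WT. In Npc1-/- cells it stood at 0.336, 0.301 and 0.281, which overlapped. The libraries were selected for poly(A) and the use of strand in counting is not given. The ratio is therefore of the RNA that was counted, not of the balance between the strands.

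Ratios between mitochondrial genes do not depend on the scale. The complex IV sum was 1.03, 1.00 and 0.989 times the complex I sum without mt-Nd3 in WT and 1.07, 1.15 and 1.06 times in Npc1-/- cells, so all Npc1-/- samples lay above all WT samples. With the TPM of the chromosome 1 near-copies added to their genes, mt-Nd3 included, the ratios were 1.06, 1.03 and 1.02 against 1.104, 1.198 and 1.12. These did not overlap either, although TPM gives the shorter partial copies of mt-Co1 and mt-Nd4 more weight than their fragments would have in the whole gene. The nuclear subunits of the same complexes had ratios of 1.49, 1.49 and 1.61 against 1.54, 1.60 and 1.85, which overlapped. mt-Nd4l, a small membrane subunit of complex I, made up 6.65%, 6.73% and 6.62% of the TPM of the 13 mRNAs in WT and 6.39%, 6.07% and 6.09% in Npc1-/- cells, with no overlap. The shares of mt-Co1 (14.12% to 14.79% in WT and 14.86% to 15.59% in Npc1-/- cells) and mt-Atp8 (32.75% to 34.24% and 32.14% to 32.7%) did not overlap either. Those of the remaining mRNAs did. These shares depend on mt-Atp8, which is shorter than a fragment, and on mt-Nd3. Among the 10 mRNAs of at least 500 bases the shares of mt-Co1 overlapped (24.05% to 25.17% in WT and 24.56% to 25.56% in Npc1-/- cells). There only those of mt-Cytb did not overlap (12.96% to 13.19% in WT and 12.64% to 12.94% in Npc1-/- cells). Relative to the other mRNAs (the geometric mean of the 12 without mt-Nd3), however, none of the 15 passed the test, and the log2 fold changes lay between -0.11 for mt-Nd4l and 0.14 for mt-Rnr1. These ratios were chosen after their values were seen.

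mt-Nd3 (chrM:9459-9806), a small subunit of complex I, differed by replicate number and not by genotype. It had 460, 503 and 4564 TPM in the WT samples and 416, 495 and 5408 TPM in the Npc1-/- samples. Replicates 3 of both genotypes stood at least 9.07 times above all 4 other samples, whereas the highest and the lowest sample differed by 1.12 to 1.60 times in the other 14 genes. Its near-copy Gm28438 on chromosome 1 had the reverse pattern: 3604, 3995 and 480 TPM in WT and 4281, 4583 and 375 TPM in Npc1-/- cells. The 4 samples high in Gm28438 stood at least 7.51 times above the replicates 3.

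The sum of mt-Nd3 and Gm28438 was even, at 4063, 4498 and 5043 TPM in WT and 4697, 5078 and 5783 TPM in Npc1-/- cells. mt-Nd3 took 11.3%, 11.2% and 90.5% of this sum in WT and 8.86%, 9.75% and 93.5% in Npc1-/- cells. Among all 15245 genes, mt-Nd3 and Cldn34c1 alone had both replicates 3 at least 5 times above every other sample, and Gm28438 and Gm27286 alone had the reverse (a limit chosen after the values were seen). The fold change of mt-Nd3 between genotypes is therefore not interpretable by itself: it was 0.40 ± 1.33 (SE, adjusted p = 0.898) and turned to -0.94 without Npc1-/- replicate 3. With Gm28438 added it was 0.57, within the range of the other mRNAs (adjusted p = 0.309). The dam and the litter of each mouse are not given in the sources used here, so whether the replicate numbers mark them, and what set mt-Nd3 apart in replicates 3, was not tested.

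**Figure D4:**
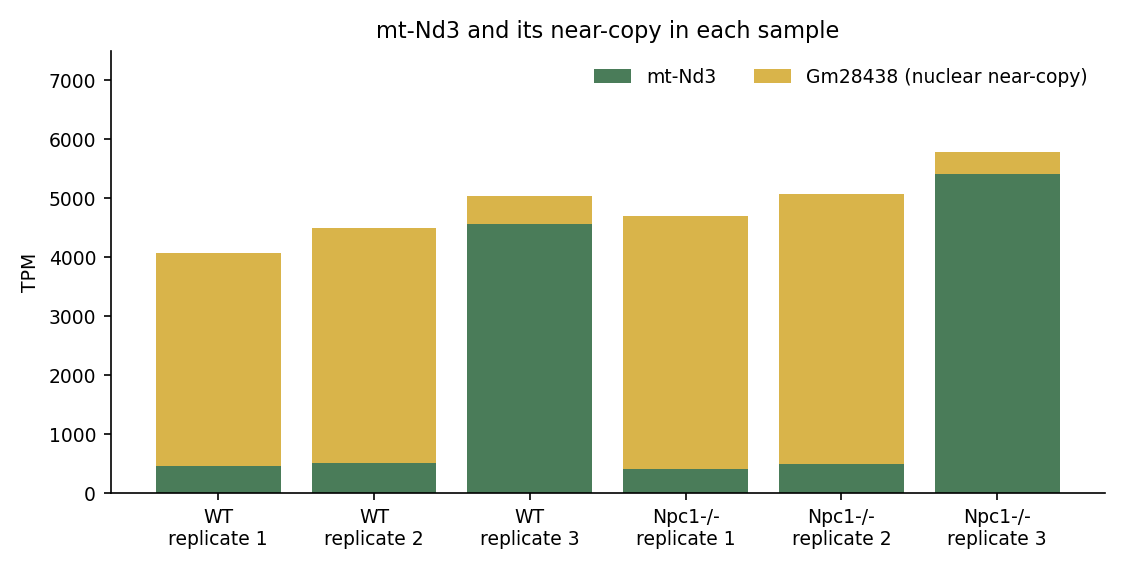
TPM of mt-Nd3 (green) and of its chromosome 1 near-copy Gm28438 (yellow), stacked, in each sample. The stacks stand at 4063 to 5783 TPM in all 6 samples, while mt-Nd3 is 8.86% to 11.3% of the stack in replicates 1 and 2 and 90.5% and 93.5% in replicates 3.

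The other near-copies did not split by replicate number. Gm10925, which matches mt-Atp6 base for base, was listed at 11480 to 16480 TPM, behind only Mbp and Mobp among genes outside the mitochondrial genome, so that mt-Atp6 held 44.8% to 51.2% of their sum. mt-Co2 held 63.5% to 70.9% of the sum with Gm28661, mt-Co3 72.9% to 78.5% with Gm28437, mt-Nd4 80.2% to 84.1% with Gm28439, mt-Nd4l 90.9% to 93.9% with Gm10222 and mt-Co1 96.6% to 98.2% with Gm29216. Gm28439 and Gm29216 (876 and 492 bases) copy only part of mt-Nd4 and mt-Co1 (1378 and 1545 bases). TPM is corrected for length, so in these sums they weigh more than their fragments would in the whole gene. Where no base differs, a fragment inside the shared stretch cannot be told apart by its sequence, and how such fragments were shared out in these tables is not stated. The levels of mt-Atp6, mt-Co2 and mt-Co3 are therefore uncertain. Together the 7 near-copies took 2.62%, 2.90% and 2.82% of TPM in WT and 3.26%, 3.67% and 3.35% in Npc1-/- cells, with no overlap. With them, the mitochondrial sum was 23.2%, 23.7% and 26.0% against 25.9%, 27.3% and 28.1%, which still overlapped. The sums of mt-Co1, mt-Co2, mt-Co3 and mt-Atp6 with their near-copies kept every Npc1-/- sample above every WT sample on TPM. The 4 near-copies on chromosomes 2 and 13 reached at most 0.0063% of TPM.

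The groups of nuclear genes that work with these mRNAs all had lower median fold changes than the 13 mRNAs (0.49 on the scaled values and 0.12 on TPM). None of these nuclear genes passed the thresholds on the scaled values. Of the 77 nuclear subunits of the respiratory chain and the ATP synthase, 76 had a log2 fold change above 0 on the scaled values and 31 on TPM (median 0.32 and -0.05). Over all genes 51.0% did so on the scaled values and 14.0% on TPM, with medians of 0.008 and -0.326. By complex, the medians on the scaled values were 0.32 for complex I (36 genes), 0.10 for complex II (4 genes, with no mitochondrial partner), 0.17 for complex III (9), 0.48 for complex IV (11) and 0.26 for the ATP synthase (17). On TPM complex IV, at 0.10, was the one nuclear complex with a median above 0. Of the 78 nuclear proteins of the mitochondrial ribosome, the partners of mt-Rnr1 and mt-Rnr2, 71 had a log2 fold change above 0 on the scaled values and 9 on TPM (median 0.13 and -0.23).

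Nuclear factors that maintain, transcribe and process mitochondrial RNA had a lower median fold change than the mRNAs they serve. Over 36 such genes the median log2 fold change was 0.06 on the scaled values and -0.26 on TPM, and none passed the thresholds. On TPM 2 of the 36, Fastkd2 and Mterf2, had every Npc1-/- sample above every WT sample (2.58% of all genes did), and 3 had the reverse. On the scaled values 6 of the 36 did so (13.3% of all genes), and 0 had the reverse. Fastkd2 (log2 fold change 0.68, adjusted p = 0.0567, limma) and Mterf2 (0.58, adjusted p = 0.109) were among these 6. The share of all genes with the reverse was not taken on either scale, so the counts of 3 and 0 have no background. Tfam, which packages mitochondrial DNA and activates its promoters, had 18.4, 16.1 and 14.9 TPM in WT and 16.0, 9.69 and 8.01 TPM in Npc1-/- cells (log2 fold change -0.23 ± 0.12 on the scaled values, adjusted p = 0.314). The groups overlapped for Tfam through Npc1-/- replicate 1. The mitochondrial RNA polymerase Polrmt (log2 fold change 0.10), its promoter factor Tfb2m (0.001) and its elongation factor Tefm (-0.12) had adjusted p of 0.593 or above on the scaled values. Lrpprc and Slirp, partners that protect mitochondrial mRNAs from decay, had -0.04 (adjusted p = 0.862) and 0.27 (adjusted p = 0.306). For the poly(A) polymerase Mtpap the value was -0.19 (adjusted p = 0.431). Pnpt1 and Supv3l1, which degrade mitochondrial RNA, both had -0.04 with adjusted p of 0.862 or above. Ppargc1a, a coactivator of mitochondrial biogenesis, was listed at 1.13 to 2.51 TPM with a log2 fold change of -0.15 (adjusted p = 0.637). On the scaled values 2 of the 10 biogenesis regulators tested lay above 0, beside 51.0% of all genes. Of these regulators Ppara, a receptor that induces fatty acid oxidation, passed the thresholds on TPM (log2 fold change -0.98, adjusted p = 0.0427) but not on the scaled values (-0.78, adjusted p = 0.0949).

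**Figure D5:**
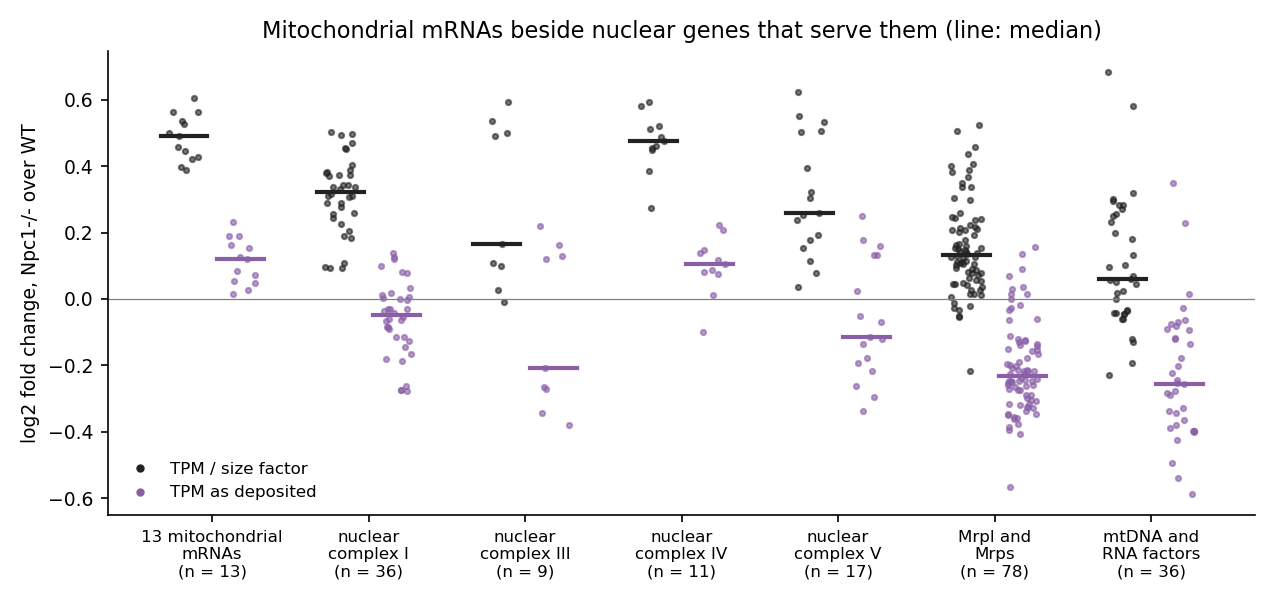
The log2 fold change (Npc1-/- over WT) of the 13 mitochondrial mRNAs beside nuclear subunits of complexes I, III, IV and V (ATP synthase), mitochondrial ribosomal proteins and factors of mitochondrial DNA and RNA, on TPM divided by the size factor (black) and TPM as deposited (purple); points are genes and lines are medians. The mitochondrial mRNAs (medians 0.49 and 0.12) and nuclear complex IV (0.48 and 0.10) lie highest on both scales, and the factors (0.06 and -0.26) lie lowest.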

How the data were processed

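The authors deposited gene tables of TPM and FPKM (fragments per kilobase of gene length, relative to depth) for 55492 genes of GRCm38. The submitters' processing notes name cutadapt 2.3, STAR 2.7.8a and RSEM 1.3.3. RSEM shares out fragments that match several genes. The study's methods instead name bbduk, STAR and featureCounts, so which tools made these tables, and how fragments matching several genes were handled, is not given in the sources used here, nor is the use of strand. Libraries were made from poly(A) RNA and read in pairs. Coordinates are of GENCODE M21, which held 55141 of the identifiers. TPM was divided by median-of-ratios size factors, log2(value + 0.5) was taken for genes whose TPM averaged 0.5 or more, and genotype was fitted with limma 3.58.1 (trend, R 4.3.3) with Benjamini-Hochberg adjustment over 15245 genes. Fold changes are on that log2 scale. The fit was tested on simulated data. Near-copies were matched with blastn 2.17.0 (at least 95% identity over at least 90% of the near-copy). Fragments were estimated from the steps of low FPKM values of nuclear genes with a single annotated transcript of middle length. Of the values used, 81.8% to 85.0% came out within 0.15 of a whole number. All mt- genes, a fixed set of regulators and library checks are named. Cldn34c1, Gm27286 and the near-copies came from searches of the data, and Fastkd2 and Mterf2 were named after their values were seen. The members and lists were chosen with earlier results of these data known. Replicate numbers come from the sample titles and are not stated to mark litters. Each library is 1 mouse.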

Additional observations from a re-analysis of the deposited data

How the results depend on the processing

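No mitochondrial gene passed the thresholds under the other scalings, pseudocounts, filters and fits tried other than the replicate block, or when any single sample was left out, which leaves groups of 3 and 2. Once the replicate number entered as a block, 13 of the 15 passed, all higher (13.2% of all genes, 2011 of 15245), the exceptions being mt-Atp8 and mt-Nd3. Deviations from the group means correlated between same-numbered samples at 0.414, 0.0602 and 0.326, so the numbers were not taken to pair the mice, although each of the 6 samples correlated best with its own number. The median log2 fold change of the 13 mRNAs (0.492) was 0.119 on TPM, 0.204 on FPKM as deposited (added after seeing the data) and 0.205 with totals that left out the 10 most abundant nuclear genes, and 0.346 to 0.694 without single samples. The count of all genes past the thresholds (124) was 924 on TPM, 719 on FPKM as deposited, 306 with upper quartile factors, 984 without the 10 nuclear genes in the total, 21 with no filter, 447 at a mean TPM of at least 5, 42 without trend and 5 to 477 without single samples. The difference in the mitochondrial share of TPM (2.111 points) was 3.905 with Mbp left out of the total, 5.108 without the 10 nuclear genes and 1.559 to 2.939 without single samples. The 10 nuclear genes include the near-copies Gm10925, Gm28661 and Gm28437, whose values may come from mt-Atp6, mt-Co2 and mt-Co3. Each result without these 10 genes therefore also leaves out values that may be mitochondrial. Relative to the 13 mRNAs, the log2 fold change turned below 0 for mt-Nd2 (-0.058), mt-Atp8 (-0.028), mt-Nd3 (-0.087), mt-Nd4l (-0.099), mt-Nd5 (-0.064) and mt-Nd6 (-0.042). Relative to the 12 without mt-Nd3, added after seeing the data, it did so for mt-Nd2 (-0.066), mt-Atp8 (-0.036), mt-Nd3 (-0.094), mt-Nd4l (-0.106), mt-Nd5 (-0.071), mt-Nd6 (-0.049) and mt-Cytb (-0.002). That of mt-Nd3 turned below 0 without WT replicate 1 (-0.265), WT replicate 2 (-0.088) or Npc1-/- replicate 3 (-0.935), and was 1.547 at its highest. The log2 difference of the rRNA to mRNA ratio was 0.037 to 0.205, and that of mt-Nd6 to the other mRNAs -0.122 to 0.005, without single samples. Adding the near-copies to their genes left the median at 0.493. The causes were not tested.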
